A study of Mus musculus with 24 samples.

Results

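The transcripts described here are 10 target genes of the transcription factor NRF2, chosen by symbol from the 24411 genes counted in each of 24 mouse liver libraries. They are *Nqo1* and *Hmox1*, which act on quinones and heme, *Gclc*, *Gclm* and *Slc7a11*, which supply glutathione, *Gsr*, *Txnrd1*, *Srxn1* and *G6pdx*, which keep thiols and NADPH reduced, and *Osgin1*, a stress-induced growth inhibitor. The comparisons ask whether the time course of *Nqo1* in livers labelled as knockouts of *E2f7* and *E2f8* was shared by the other targets, and whether *Hmox1* differed from it. The mice were males of 2.5 months that were homozygous for floxed *E2f7* and *E2f8* alleles and were fasted before tissue or drug. LKO (labelled KO) carried Alb-Cre, which deletes lifelong in cells that express albumin, on a mixed and mainly FVB background with the R26R-mTmG reporter, and its controls (labelled WT) were littermates that lacked Cre. HKO (labelled CRE) received AAV8-TBG-Cre, a virus with a hepatocyte promoter, as adults, and its controls (labelled NULL) received AAV8-TBG-Null. At 0 h, without acetaminophen (APAP), there was 1 library per mouse from 4 control, 4 LKO, 3 AAV8-TBG-Null and 3 HKO mice. At 12, 24, 48, 72 and 96 h after 300 mg/kg APAP there was 1 library per genotype and time point, pooled from 3 mice, for control and LKO alone. The HKO cohort was therefore compared at 0 h only.

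NRF2, encoded by *Nfe2l2*, is held in the cytoplasm and marked for degradation by KEAP1 and CUL3. Oxidants and reactive drug metabolites such as that of APAP modify KEAP1, after which NRF2 enters the nucleus, pairs with a small MAF protein and binds antioxidant response elements. BACH1 competes for the same elements and represses them, above all at *Hmox1*, until heme displaces it. In the liver the pathway restores glutathione, which conjugates the toxic APAP metabolite.

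Reads on genes ranged from 12665686 to 19499897 per library, with a median of 16500386, so that 3 counts, taken as the lowest detectable level, were 0.154 to 0.237 CPM (counts scaled to library size). Levels are CPM adjusted by edgeR's TMM factors within each cohort. *E2f7* had 0 to 66 counts per library. Whole-gene counts of *E2f8* were 17.8 to 34.5 CPM in the libraries labelled LKO against 11.7 to 18.9 CPM in control at 0 h, 14.7 to 47.6 against 4.19 to 14.2 CPM in the pools, and 30.1 to 82.0 CPM in those labelled HKO against 14.6 to 25.7 CPM in AAV8-TBG-Null control. Such counts include exons outside the floxed part, do not check the deletion and were higher rather than lower in the knockouts, so LKO and HKO name libraries by their labels throughout. Of the 7 hepatocyte markers counted, 6 (*Alb*, *Apoa1*, *Ttr*, *Serpina1c*, *Cyp2e1* and *Cps1*) were present in every library, while *Ass1* was at most 0.271 CPM. The hemoglobin genes *Hbb-bs* and *Hba-a1* were at 0 in all 24 libraries, so the erythroid marker list rests on *Alas2* alone. Why the counts of *Ass1* and the hemoglobin genes were so low was not tested, and they are not read as expression levels. Reads outside annotated genes were 13.6% in the control pool at 12 h and 10.9% in the LKO pool. In whole liver, fewer cells of a type and less RNA per cell cannot be told apart.

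Promoter windows of 7 of the 10 genes, from 250 bases before to 50 bases after an annotated start (RefSeq, GRCm38.p6), were searched on both strands for the core of the antioxidant response element, TGACNNNGC, and for the related TGANTCA, to which MAF and AP-1 dimers bind. Of 32851 mouse promoter windows, 12.4% held the first motif and 7.81% the second. Among the 9 windows of these genes (3 belong to *Txnrd1*), 4 held the first, each in a different gene, and 2 held the second. They are shown to give the place of these letters relative to the start, in 4 genes that were called after APAP and in *Gclm*, which was not. The motif is in capitals, the strand is that of the gene, and no first motif overlapped a second one.

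Srxn1, TGANTCA from 102 bases before the start, chr2:152105412-152105438, plus strand: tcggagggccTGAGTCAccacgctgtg
Srxn1, TGANTCA from 45 bases before the start, chr2:152105469-152105495, plus strand: aaattcacccTGAGTCAgcggccgggc
Osgin1, TGANTCA from 97 bases before the start, chr8:119437040-119437066, plus strand: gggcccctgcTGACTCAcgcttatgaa
Gclm, reverse complement of TGACNNNGC from 134 bases before the start, chr3:122245413-122245441, plus strand: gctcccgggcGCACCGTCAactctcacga
Txnrd1, reverse complement of TGACNNNGC from 92 bases before the start, chr10:82859104-82859132, plus strand: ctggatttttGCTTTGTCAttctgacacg
G6pdx, reverse complement of TGACNNNGC from 57 bases before the start, chrX:74428919-74428947, minus strand: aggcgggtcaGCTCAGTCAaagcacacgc

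*Srxn1* also held the first motif from 28 bases after the start. The windows of *Nqo1* and *Slc7a11* held neither run of letters, and those of *Hmox1*, *Gclc* and *Gsr* were not analysed here. A match is a description of letters and not a binding site.

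At 0 h the 10 genes spanned a wide range of levels. Per kilobase of exon, *Gclc*, the catalytic subunit of the first enzyme of glutathione synthesis, was highest in control at 82.6 ± 19.6 CPM per kb (SD, n = 4). *Osgin1* followed at 33.7 ± 11.8, *Gsr* at 32.5 ± 1.02, *Gclm* at 25.6 ± 2.34 and *Txnrd1* at 22.6 ± 3.13 CPM per kb. The mice overlapped between *Osgin1* and *Gsr* and between *Gclm* and *Txnrd1*, but not between *Gsr* and *Gclm*. Next came *Srxn1* at 12.7 ± 2.00 and *Hmox1* at 12.4 ± 2.35 CPM per kb, whose ranges overlapped. Lower still were *Nqo1* at 2.78 ± 0.697 and *G6pdx* at 1.17 ± 0.139 CPM per kb, each without overlap with its neighbours in this order. *Slc7a11*, the cystine importer, was close to absent, with 1 read in all over 4 control mice and 1 over 4 LKO mice.

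*Nqo1*, which reduces quinones, lies at chr8:107388225-107403206 on GRCm38 (GENCODE vM21, the source of all gene coordinates here). It was at 4.78, 2.79, 4.37 and 5.30 CPM in the 4 control mice and at 2.78, 7.57, 5.06 and 6.47 CPM in the 4 LKO mice. One LKO mouse was as low as the lowest control, and the groups overlapped. In the other cohort *Nqo1* was at 5.06, 5.25 and 6.50 CPM with AAV8-TBG-Null and at 5.08, 4.57 and 2.33 CPM in HKO, so the LKO mean lay above its control and the HKO mean below. *Hmox1*, which breaks down heme, lies at chr8:75093621-75100589. It was at 17.3, 19.0, 25.1 and 25.3 CPM in control and at 13.6, 16.0, 18.4 and 23.9 CPM in LKO. HKO gave 24.7, 24.8 and 15.4 CPM against 13.7, 19.0 and 21.7 CPM. The difference had opposite signs in the cohorts for this gene too, and the mice overlapped in both. For none of the 10 genes did the mice of a knockout lie apart from its controls, beside 1.83% of the 12426 genes tested in LKO and 18.0% of the 12397 tested in HKO.

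**Figure D1:**
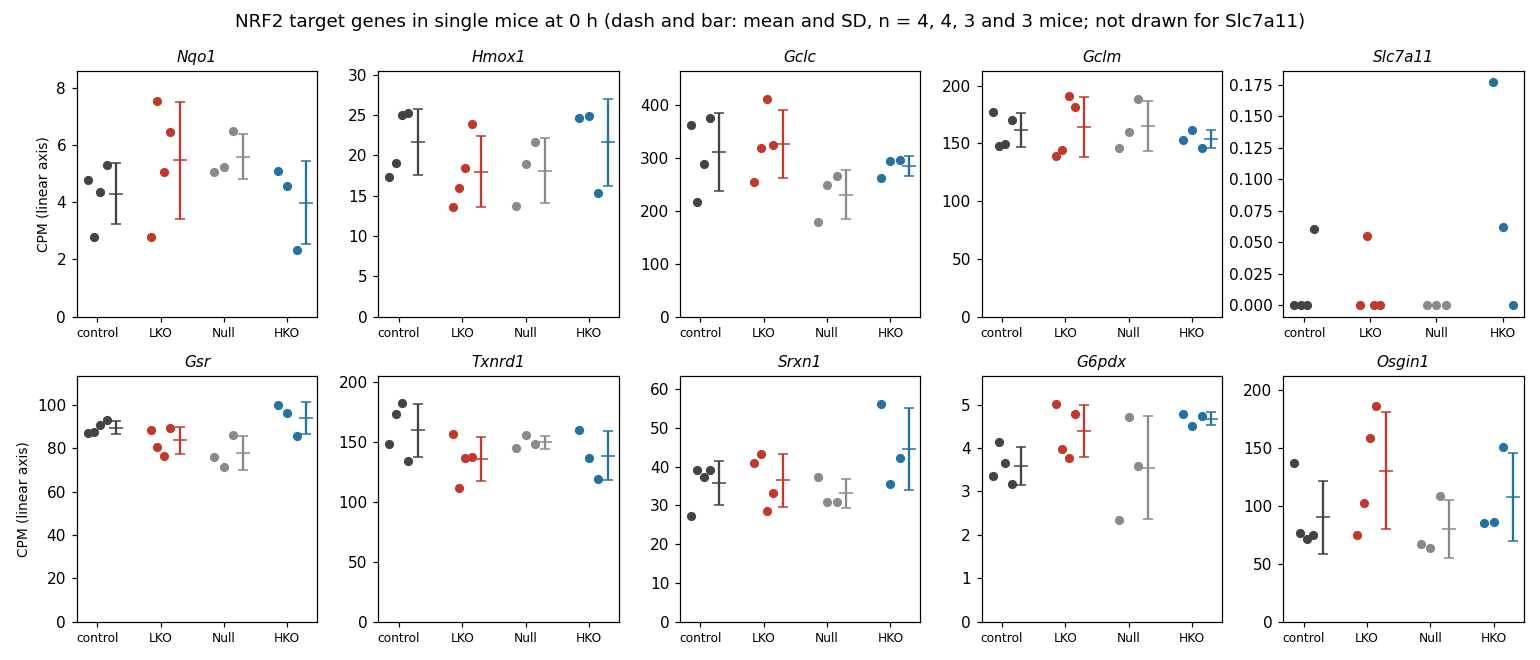
CPM on linear axes of the 10 NRF2 target genes in single livers at 0 h; dots are mice, and the dash and bar are mean and SD (not drawn for *Slc7a11*, which had 0 to 3 reads). In every panel the dots of LKO and control, and of HKO and AAV8-TBG-Null control, share part of their range.

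At 0 h in LKO, 0 of the 9 members tested were called by edgeR's quasi-likelihood test (adjusted p under 0.05 and 1.5-fold or more), 0 had an unadjusted p under 0.05, and DESeq2 called 0. Over all 12426 genes tested, 0% were called, 352 had an unadjusted p under 0.05, and DESeq2 called 3. *Slc7a11* was left out by the filter on low counts. The log2 fold change of *Osgin1* was 0.54 with a standard error of 0.30, that of *Nqo1* 0.35 with 0.31 and that of *Hmox1* -0.26 with 0.20, all with an adjusted p of 0.999. In HKO, 0 of 9 members were called by edgeR and 0 by DESeq2, beside 0.960% of 12397 genes by edgeR and 331 genes by DESeq2. An unadjusted p under 0.05 was found for 2 members and for 1598 genes. *Srxn1*, which repairs overoxidized peroxiredoxins, was at 56.1, 35.4 and 42.3 CPM in HKO and 37.4, 30.9 and 31.0 CPM in its controls (log2 fold change 0.43, standard error 0.17, adjusted p = 0.328). *Gsr*, which reduces oxidized glutathione, was at 100, 96.3 and 85.8 CPM against 76.2, 71.2 and 86.2 CPM (log2 fold change 0.27, standard error 0.11, adjusted p = 0.335). The LKO effect minus the HKO effect was called for 0 of 9 members by edgeR and 0 by DESeq2. It had an unadjusted p under 0.05 for 1, *Gsr* (-0.37, standard error 0.15, adjusted p = 1.00), and 0% of 12945 genes were called, while 579 had an unadjusted p under 0.05 and DESeq2 called 21.

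After APAP nearly the whole group was raised early. Against the 8 mice of the cohort at 0 h, with genotype in the fit, 8 of the 9 members that were well counted at 0 h rose at 12 h, all except *Gclm*, beside 17.0% of the 13328 genes tested. At 24 h 6 of them rose (14.1% of genes). The 48 h pools had 3 raised (10.0%) and those of 72 h had 4 (11.0%). *Slc7a11* was also called from 12 h to 72 h but stands outside these counts, since it passed the filter on low counts only through the pools in which it was high. At the last time, 96 h, edgeR called 0 members (0.338%), 1 member and 2112 genes had an unadjusted p under 0.05, and DESeq2 called 1 member and 342 genes. No member was called lower at any of the 5 times, beside 14.5, 12.1, 6.71, 5.81 and 0.128% of genes. In order of time, the median log2 change of the 9 members was 2.29, 1.39, 0.44, 0.52 and -0.23, where the median over all genes lay within 0.04 of 0 at each time.

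*Srxn1* and *Hmox1* had the largest changes among the members that were well counted at 0 h. *Srxn1* rose by 4.69 on the log2 scale at 12 h (standard error 0.20) and 3.96 by 24 h, and it was still raised by 1.42 after 48 h and 0.67 after 72 h. The last call was close to the threshold and was lost in 10 of 25 other settings, namely the stranded column and leaving out any control mouse, LKO mouse 3 or 4, either pool of 72 h or the control pool of 96 h (adjusted p between 0.0519 and 0.258). *Hmox1* rose at the same 4 times, by 4.40 (standard error 0.27), 1.48, 1.33 and 2.38, so that its course had a second maximum. The call at 48 h was lost without the control pool of that time (0.59, adjusted p = 0.390). *G6pdx*, which makes NADPH, rose at 12, 24, 48 and 72 h (1.55, 2.53, 1.12 and 1.58); without the control pool of 48 h the third value was 1.09 and not called (adjusted p = 0.0633). Its exons overlap those of *Ikbkg* on the other strand, and the reads were counted without strand. *Nqo1* rose by 1.56 (standard error 0.32) at 12 h, 2.36 (0.30) at 24 h and 0.98 (0.32, adjusted p = 0.0431) at 72 h. Leaving out the control pool of 12 h brought the first value to 0.75 (adjusted p = 0.201), and the last call was lost in 9 of 25 other settings, namely the stranded column and leaving out control mouse 1, 2 or 3, LKO mouse 3 or a pool of 72 h or 96 h (adjusted p between 0.0507 and 0.264). *Osgin1* rose at 12 h alone (2.69), as did *Gclc* (2.38). *Gsr* rose at 12 h and 24 h (1.26 and 1.39), as did *Txnrd1*, the cytosolic thioredoxin reductase (2.29 and 1.09). *Slc7a11* went from 1 read in 4 control mice to 102 in the control pool at 24 h, a ratio per read of 410 with a 95% counting interval of 72.0 to 16360. In LKO it went from 1 read to 294, a ratio of 1121 with an interval of 199.7 to 44430. *Gclm*, the modifier subunit partnered with *Gclc*, had log2 changes between -0.33 and 0.23 and was not called.

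**Figure D2:**
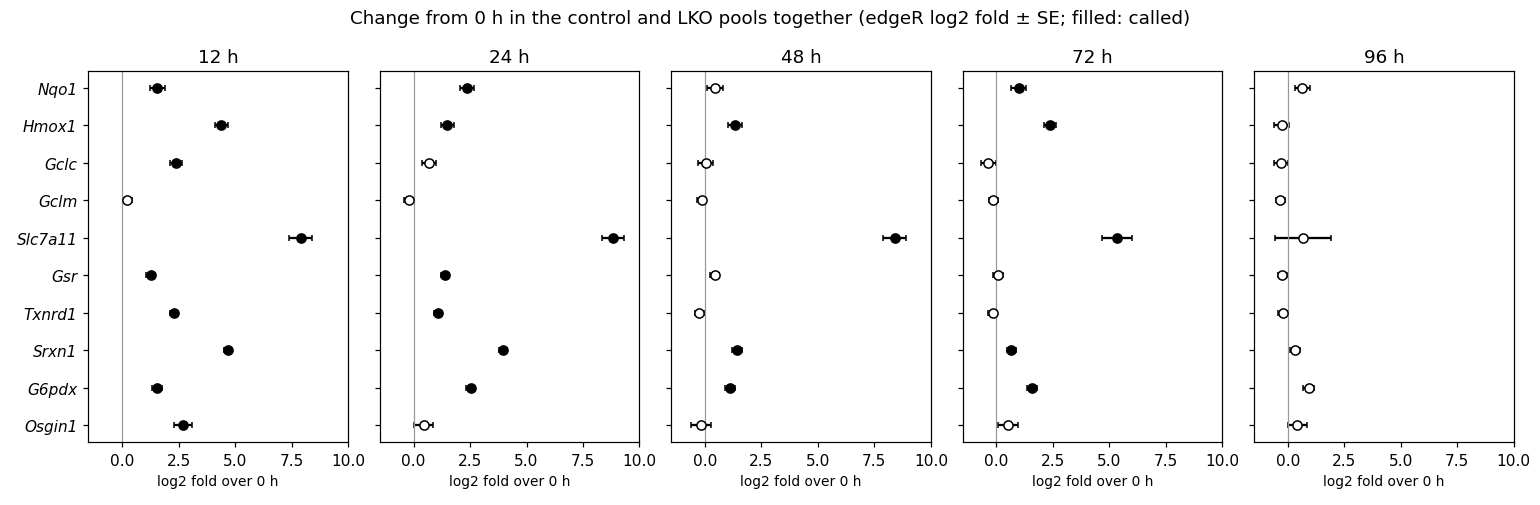
Log2 fold change from 0 h, control and LKO together, with bars of 1 standard error from edgeR; filled circles were called (adjusted p under 0.05 and at least 1.5-fold). The 12 h panel has 9 filled circles, *Slc7a11* included, and the 96 h panel none; the fitted values of *Slc7a11* depend on its near-zero counts at 0 h.

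The pools of the 2 genotypes were then set side by side. With 1 pool per genotype and time point there is no replicate error at a single time, so each difference is given with the range of the 16 differences between single LKO and control mice at 0 h, and ratios with 95% intervals that cover counting error only. These mice had no APAP. The share of all genes outside their own range after APAP was not counted, so lying outside it does not set a member apart. In the control pools *Nqo1* was at 17.3, 16.9, 4.76, 7.40 and 6.01 CPM at 12, 24, 48, 72 and 96 h. The LKO pools had 10.2, 35.1, 8.95, 12.4 and 9.59 CPM. LKO was thus lower at 12 h and higher at each later time. The ratio of LKO to control was 0.587 (0.480 to 0.716) at first and then 2.08 (1.81 to 2.40), 1.88 (1.45 to 2.46), 1.67 (1.33 to 2.11) and 1.60 (1.23 to 2.09). All 5 differences were larger than counting error but lay inside the range of the single mice at 0 h, which ran from -0.90 to 1.40 on the log2 scale. The highest level came at 24 h in LKO, 3.45 times that of 12 h (2.91 to 4.11), while in control 12 h and 24 h did not differ beyond counting error (ratio 0.974, 0.819 to 1.16).

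The order of signs seen for *Nqo1* (lower in the LKO pool at 12 h, higher at the 4 later times) was shared by 1 of the 9 other members, *Gclc*. How common this order was over all genes was not counted, so the number describes the members only. *Gclc* (chr9:77754535-77794485) was at 2432, 427, 266, 204 and 208 CPM in the control pools and 832, 596, 388, 299.6 and 315 CPM in the LKO pools. Control was nearly 3 times LKO at 12 h (ratio of LKO to control 0.342, 0.335 to 0.349), outside the range of the mice at 0 h, whereas the 4 later ratios were between 1.40 and 1.52, inside it. *Gclm* (chr3:122245557-122270732) was at 228, 132, 115, 150 and 120 CPM in control and 151, 150, 181, 147 and 138 CPM in LKO. It matched *Nqo1* in sign at all times but 72 h, where LKO and control did not differ beyond counting error (ratio 0.977, 0.925 to 1.03), and its LKO maximum, at 48 h, was 1.11 times the 0 h mean. *Slc7a11* (chr3:49892526-50443614) went the other way at 12 h. Its levels were 3.25, 6.20, 4.91, 1.00 and 0 CPM in control and 8.13, 15.2, 10.8, 0.713 and 0.0542 CPM in LKO. The first 3 ratios were 2.50 (1.79 to 3.55), 2.46 (1.96 to 3.11) and 2.19 (1.71 to 2.83), with intervals above 1. With 1 read over each group of 4 mice, the 0 h range of this gene is set by the prior count and gives no measure of spread. At 72 h, with 15 reads in each pool, no difference was detectable (0.713, 0.325 to 1.57).

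*Gsr* (chr8:33652523-33698163) was at 270, 192, 146, 85.0 and 64.6 CPM in the control pools and 150, 259, 90.4, 96.0 and 81.7 CPM in the LKO pools. Its LKO maximum came at 24 h (1.73 times the 12 h pool, 1.65 to 1.81) and its control maximum at 12 h. The differences at 12, 24, 48, 72 and 96 h all lay outside the range of the mice at 0 h (-0.28 to 0.04 on the log2 scale). LKO was lower at 12 h and 48 h and higher at 24, 72 and 96 h. *Txnrd1* (chr10:82833951-82897712) was at 938 CPM in control and 526 CPM in LKO at 12 h (ratio 0.561, 0.546 to 0.576), and from 24 h on the ratio lay between 0.931 and 1.24. *Srxn1* (chr2:152105516-152111376) was at 1230, 591, 128, 59.0 and 44.7 CPM in control and at 669, 539, 69.3, 55.9 and 45.0 CPM in LKO. It was lower in LKO by nearly the same ratio at 12 h (0.544) and 48 h (0.542), beyond the 0 h mice at both, and close to control at 24, 72 and 96 h. *G6pdx* (chrX:74409483-74429194) was at 15.6 and 7.95 CPM at 12 h, a ratio of 0.510 (0.409 to 0.635), and peaked at 24 h in both genotypes at 24.3 CPM in control and 22.0 CPM in LKO. Over the 10 members the highest pool was that of 12 h for 8 in control and 5 in LKO, and that of 24 h for 2 in control and 4 in LKO. The same tally was not made over all genes.

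**Figure D3:**
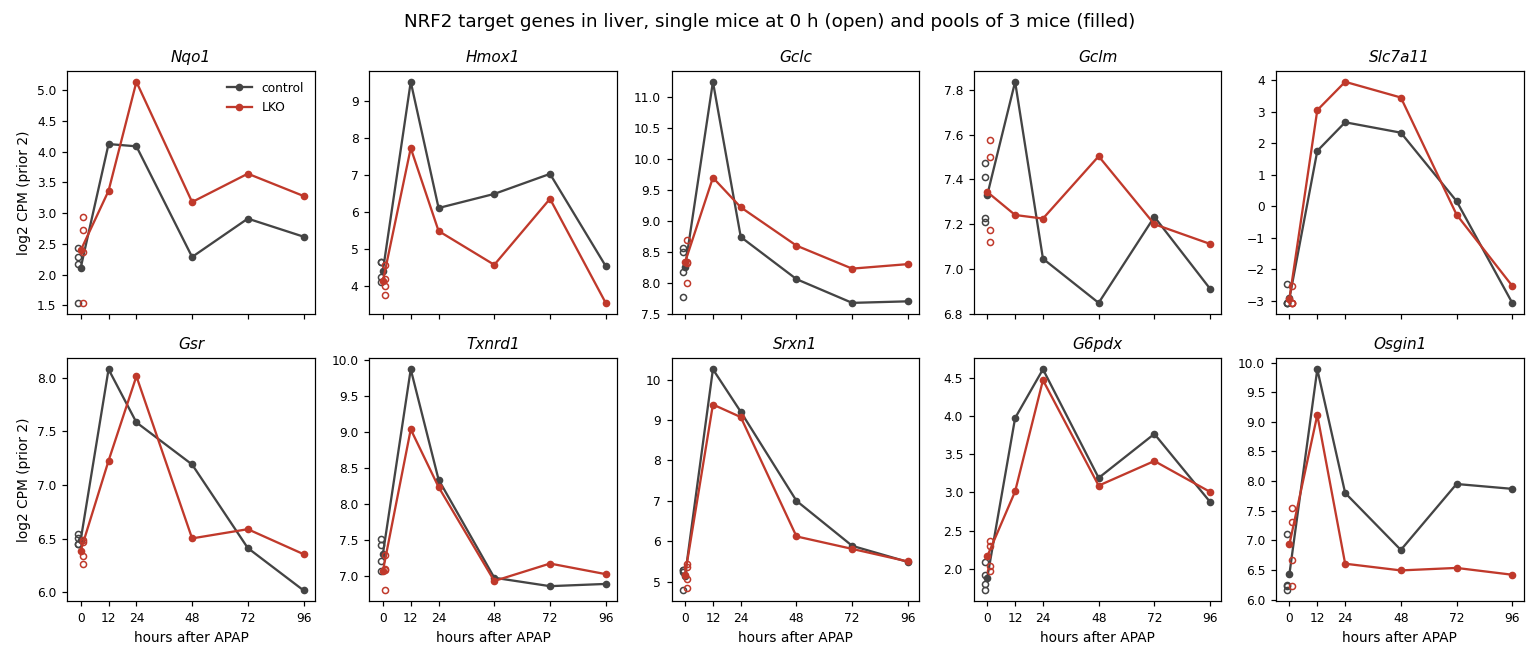
Log2 CPM (prior count of 2) of the 10 target genes against hours after APAP in control (grey) and LKO (red); open circles are single mice at 0 h and filled circles are their mean at 0 h and pools of 3 mice later. The *Nqo1* and *Gclc* lines cross between 12 h and 24 h, whereas the LKO lines of *Hmox1* and *Osgin1* stay below control at all 5 times.

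*Hmox1* did not follow *Nqo1*. It was at 740, 69.5, 90.5, 132 and 23.3 CPM in the control pools and at 214, 45.1, 23.9, 82.5 and 11.7 CPM in the LKO pools. LKO was lower at all 5 times, with ratios of 0.289 (0.278 to 0.30), 0.649 (0.594 to 0.710), 0.264 (0.237 to 0.294), 0.627 (0.587 to 0.669) and 0.499 (0.418 to 0.594). The differences at 12, 48 and 96 h exceeded those of all 16 mouse pairs at 0 h. *Osgin1* (chr8:119434124-119446256) was the other member that was lower in LKO at all 5 times. It was at 946, 223, 114, 248 and 234 CPM in control and at 555, 97.5, 90.1, 92.8 and 85.6 CPM in LKO. Control stayed at 234 CPM or more at 72 h and 96 h, above its 4 mice at 0 h, while LKO lay within the range of its own mice from 24 h on. The differences at 24, 72 and 96 h lay outside the range of the mouse pairs at 0 h, which ran from -0.87 to 1.38 on the log2 scale.

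With the 5 times as blocks, edgeR called 2 of 10 members lower in LKO over 12–96 h, *Hmox1* (-1.21 on the log2 scale, standard error 0.22) and *Osgin1* (-1.04, 0.19), both with an adjusted p of 0.0484, beside 0.329% of 12782 genes called lower, and 0 members called higher, beside 0.250%. The other values were 0.96 for *Slc7a11* (standard error 0.33, unadjusted p = 0.0134, adjusted p = 0.175), 0.53 for *Nqo1* (standard error 0.26, adjusted p = 0.318), -0.40 for *Srxn1*, -0.29 for *G6pdx* and between -0.12 and 0.15 for *Gclc*, *Gclm*, *Gsr* and *Txnrd1*. The calls were close to the threshold. DESeq2 also called 2 members, but scaling by library size gave adjusted p-values of 0.0725 for *Hmox1* and 0.0539 for *Osgin1*, a stranded column ended the call of *Hmox1*, leaving out any of 12, 24, 48 and 72 h ended both (adjusted p between 0.0626 and 0.160), and leaving out 96 h ended that of *Osgin1* (0.0610). With no block for time neither was called (0.769 and 0.788). Their log2 fold changes stayed between -1.49 and -0.93 throughout.

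Summed over 7 markers of recruited monocytes and macrophages, which also express *Hmox1*, the LKO pools were lower at all 5 times as well. The sums were 48.0, 79.4, 110, 409 and 42.7 CPM in control and 27.2, 33.0, 84.9, 276 and 14.0 CPM in LKO, against 9.56 to 12.5 CPM in the 8 mice at 0 h, where at most 1 of the 7 genes was at 0. These sums were highest at 72 h in both genotypes, the time of the second maximum of *Hmox1*. The sum over 4 cholangiocyte markers was also lower in LKO at all 5 times. *Sox9* reached 128 CPM, while *Krt19*, *Krt7* and *Epcam* were at most 2.66, 1.77 and 5.35 CPM in any library. The LKO sum lay below control at 2 of 5 times for 6 Kupffer cell markers, 4 for hepatocytes, 3 for neutrophils, 3 for sinusoidal endothelium, 4 for stellate cells, 3 for the erythroid list and 2 for lymphocytes. The part of other cells in the *Hmox1* difference was not tested.

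The difference between the genes was tested directly. At each time the log2 difference of *Hmox1* between LKO and control lay below that of *Nqo1*, the first minus the second being -1.03, -1.67, -2.81, -1.41 and -1.66 in order of time. The mean was -1.72 ± 0.67 (SD, n = 5 times), with an exact 2-sided p of 0.0625 from flipping signs over the 5 times, which is the smallest that 5 times allow, so the test could not reach 0.05. It compares the mean with 0 and not with the level before APAP. At 0 h the same value was -0.56, where *Hmox1* minus *Nqo1* had an SD over mice of 0.38 in control and 0.50 in LKO on the log2 scale (n = 4 mice each, exact 2-sided permutation p = 0.200).

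Whether the LKO effect changed with time was then tested. The effect at 12–48 h minus that at 72–96 h was called for 0 of 10 members by edgeR and 0 by DESeq2, 0 members had an unadjusted p under 0.05, and 0.149% of 12782 genes were called by edgeR, 172 genes by DESeq2 and 1343 at an unadjusted p under 0.05. It was 1.51 for *Slc7a11* (standard error 0.70, adjusted p = 0.488), -0.73 for *Gclc* (0.57, adjusted p = 0.693) and -0.30 for *Nqo1* (0.53, adjusted p = 0.880). This contrast averages 12 h with 24 h and 48 h, where *Nqo1* had opposite signs. The effect over 12–96 h minus that at 0 h was called for 0 of 10 members by edgeR (0% of 13328 genes, with 1285 at an unadjusted p under 0.05) and for 1 by DESeq2, *Osgin1*, beside 39 genes. An unadjusted p under 0.05 was found for 3, *Osgin1* (-1.57, standard error 0.38, adjusted p = 0.361), *Hmox1* (-0.94, 0.31, adjusted p = 0.445) and *G6pdx* (-0.58, 0.26, adjusted p = 0.499).

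At 12 h, 9 of the 10 members were lower in the LKO pool, beside 51.8% of all 13328 genes, and the median difference was -0.84 on the log2 scale against -0.03 for all genes. By log2 CPM with the prior count of 2, 3 members differed at least 2-fold at 12 h (*Hmox1* and *Gclc* lower, *Slc7a11* higher), as did 20.4% of genes. At 24 h 3 did (*Nqo1* and *Slc7a11* higher, *Osgin1* lower; 7.15% of genes), at 48 h 2 (*Hmox1* lower, *Slc7a11* higher; 15.7%), at 72 h 1 (12.4%) and at 96 h 1 (10.3%), the last 2 being *Osgin1*. *Hmox1* at 96 h lay at the limit (log2 difference -0.9953, CPM ratio 0.499) and is not in the count. The median difference of the members from 24 h on lay between -0.07 and 0.17. At 96 h 2 of 10 were lower in LKO, beside 49.97% of all genes. Of the other 8, *Slc7a11* had 1 read against 0, and *Srxn1* (1.01, 0.907 to 1.12) and *G6pdx* (1.096, 0.846 to 1.43) did not differ beyond counting error.

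**Figure D4:**
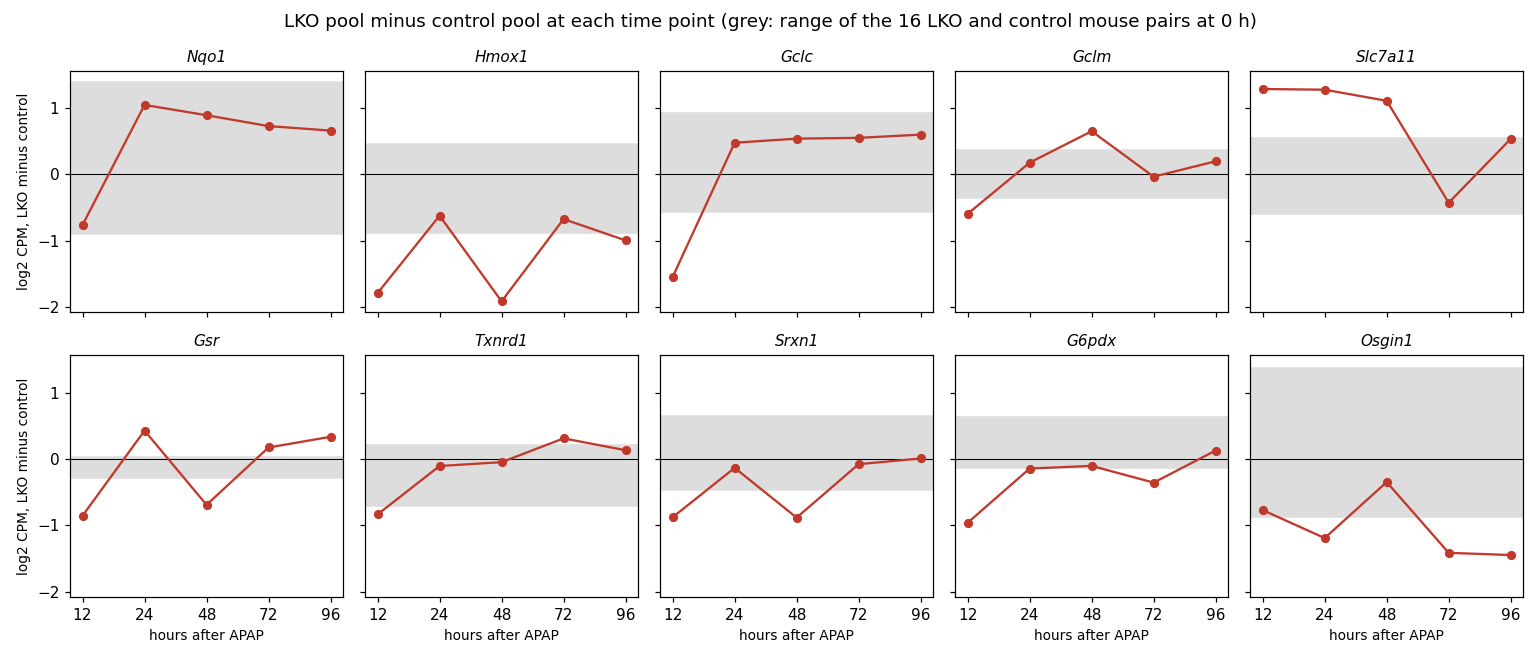
Log2 CPM of the LKO pool minus the control pool at each time for the 10 target genes; the grey band is the range of the 16 differences between single LKO and control mice at 0 h. At 12 h every point but that of *Slc7a11* is below 0, and at 96 h all but those of *Hmox1* and *Osgin1* are above it.

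Among 8 genes that regulate NRF2, *Nfe2l2* itself stayed between 47.8 and 81.1 CPM in the pools, against 46.6 to 71.1 CPM in the control mice and 39.5 to 87.4 CPM in the LKO mice at 0 h, and was called at no time. Its control pools of 12 h (79.0 CPM) and 72 h (74.8 CPM) lay above the control mice and its LKO pools within the LKO mice. *Keap1* and *Cul3* were called at no time either. At 12 h 4 of the 8 were called higher, beside 17.0% of the 13328 genes tested. They were the small MAF genes *Maff* (log2 fold change 3.88, standard error 0.26) and *Mafk* (2.17, 0.25), the repressor *Bach1* (1.30, 0.25) and *Sqstm1* (2.13, 0.14), whose product binds KEAP1. *Sqstm1* was also raised at 24 h (0.65), where *Mafg*, the last small MAF gene, fell (-0.80, adjusted p = 0.0333). The first of these calls was lost without the control pool of 24 h (0.44, adjusted p = 0.190) and the second in 5 of 25 other settings (adjusted p between 0.0510 and 0.267), either pool of 24 h among them. *Bach1* was at 219 CPM in the control pool at 12 h and 78.0 CPM in the LKO pool, and its call was lost without that control pool (0.62, adjusted p = 0.162). *Maff* was at 437, 44.9, 29.2, 14.7 and 9.27 CPM in the control pools and at 216, 17.3, 3.85, 6.61 and 3.90 CPM in the LKO pools, lower in LKO at all 5 times. *Mafk* was lower at all 5 times too, at 175, 40.6, 39.8, 23.3 and 20.9 CPM against 57.4, 25.7, 14.1, 14.8 and 15.8 CPM.

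Over 12–96 h *Maff* was the one regulator called between genotypes (-1.51, standard error 0.26, adjusted p = 0.0417 by edgeR), while *Mafk* was at -0.97 (0.20, adjusted p = 0.0620). The call of *Maff* was lost without 12, 24 or 72 h (adjusted p between 0.0843 and 0.120), with scaling by library size (0.0654), with a stranded column (0.0520) and with no block for time (-1.11, 0.885), while *Mafk* was called by DESeq2 (0.000893), with no filter beyond 1 count (0.0130) and without 96 h (0.0332). *Maff* was already low at 0 h, at 21.4, 9.78, 11.6 and 14.6 CPM in LKO against 25.6, 39.1, 26.6 and 30.3 CPM in control, without overlap (log2 fold change -1.08, standard error 0.24, unadjusted p = 0.000902, adjusted p = 0.999). HKO had 7.80, 6.88 and 4.41 CPM against 11.4, 18.0 and 10.3 CPM, also without overlap (-1.05, 0.27, adjusted p = 0.123). Of the other 7 regulators, *Bach1* lay apart in HKO (54.3 to 71.9 CPM against 76.5 to 81.3 CPM) and none did in LKO. Such gaps were found in 1.83% of all genes tested in LKO and 18.0% in HKO. In both cohorts these differences failed edgeR's correction over all genes in the design used here. The one in HKO was called by DESeq2 (adjusted p = 0.00913) and by edgeR with no filter beyond 1 count (0.0499).

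**Figure D5:**
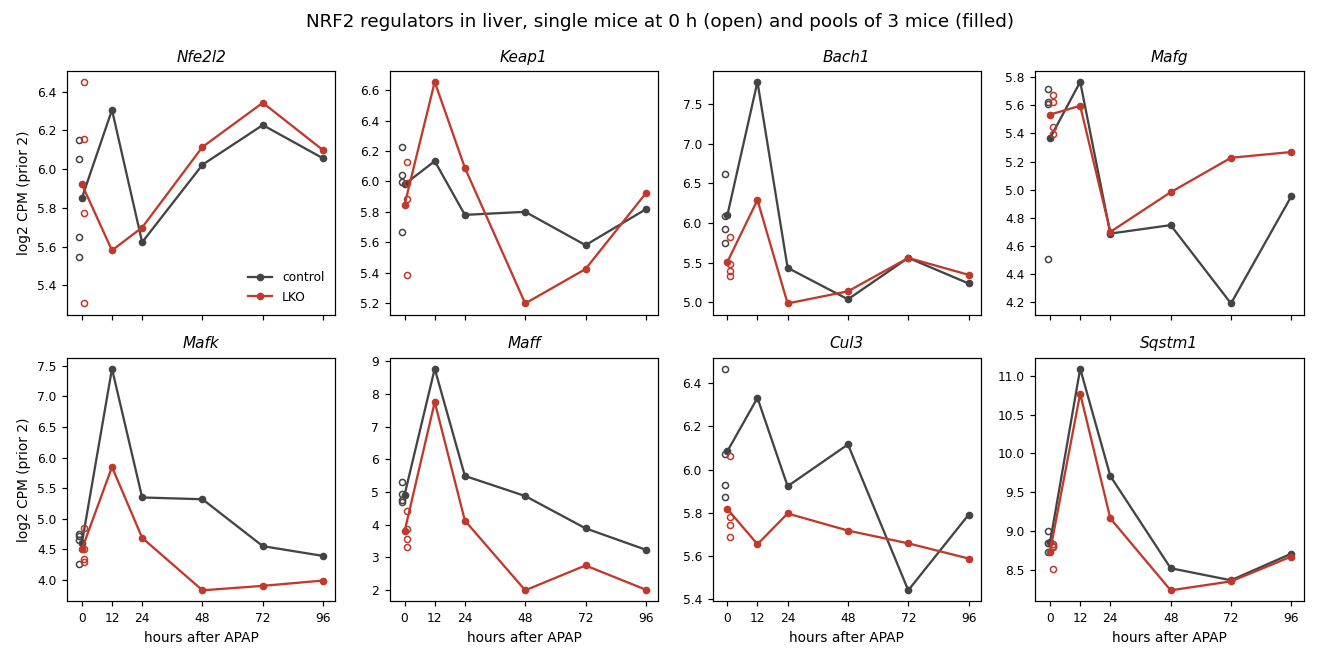
Log2 CPM (prior count of 2) of 8 NRF2 regulators against hours after APAP, drawn as for the target genes. *Maff* and *Mafk* peak at 12 h and are lower in the LKO pool at all 5 times, while the *Nfe2l2* pools stay between 47.8 and 81.1 CPM.

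Of 44 further genes of the pathway, these regulators included, 43 were tested against 0 h, of which 42 were counted well enough to be tested at 0 h too. In order of time 14, 12, 5, 5 and 2 of these 42 were called higher, beside 17.0, 14.1, 10.0, 11.0 and 0.338% of all genes, and 4, 7, 6, 4 and 2 lower, beside 14.5, 12.1, 6.71, 5.81 and 0.128%, and *Maff* was the only one that edgeR called between genotypes with the settings used here. *Gsta1*, a glutathione transferase whose reads may be shared with its close paralog, rose by 5.52, 6.78, 4.90 and 2.87 on the log2 scale at 12, 24, 48 and 72 h. These changes rest on a low baseline, 2 to 33 counts per control mouse and 6 to 47 per LKO mouse at 0 h. *Pgd*, which makes NADPH in the step that follows that of *G6pdx* and its lactonase, was called higher at all 5 times (1.72, 1.68, 0.99, 0.86 and 0.91). *Cbr3*, a carbonyl reductase, is the gene outside these counts. It had 6 to 20 counts per mouse at 0 h and passed the filter only through the pools, and its fitted changes at 12, 24 and 48 h were 1.78, 3.11 and 1.58. At 12, 24 and 48 h *Abcc4*, an exporter, rose by 1.46, 1.31 and 1.45 and *Glrx*, glutaredoxin, by 1.66, 1.60 and 1.09. *Blvra*, which acts on the product of heme oxygenase, rose late, by 0.73, 0.97 and 0.73 at 48, 72 and 96 h. Some glutathione genes fell. *Gstm3*, which like *Gstm1* has close paralogs, fell by 1.59, 2.46 and 1.84 at 12, 24 and 48 h before it was raised by 1.39 at 72 h. *Gpx1*, a glutathione peroxidase, fell by 0.89 and 1.54 at 12 h and 24 h, *Gstm1* by 1.07 and 1.40 at 24 h and 48 h, and *Gstp1* by 0.97 and 0.99 at 48 h and 72 h. *Sesn2*, a stress-induced sestrin, rose by 0.93 at 12 h and fell by 1.27, 0.88, 1.00 and 1.29 at the later times. *Slc40a1*, the iron exporter, fell by 0.92 and 0.91 at 12 h and 24 h, *Abcc2*, another exporter, by 0.99 and 1.02 at 24 h and 48 h, *Idh1* by 0.91 at 12 h and *Aox1* by 0.60 at 72 h. *Maff*, highest at 12 h, fell below its 0 h level by 1.08 at 72 h and 1.80 at 96 h, calls that were lost in 4 and 13 of 25 other settings (adjusted p up to 0.365 and 0.467).

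Over the 18 libraries of the LKO cohort, which share times and mice within a pool, the 5 genes most like *Nqo1* by Pearson correlation of log2 CPM were *Maoa* (0.89), *Sybu* (0.87), *Aldh1a3* (0.87), *Zfp40* (0.84) and *Htatsf1* (0.83) of 13328. The nearest other member was *G6pdx* (0.81, rank 14), followed by *Srxn1* (0.74, rank 63), and *Hmox1* was at 0.51. Those most like *Hmox1* were *Csf2rb2* (0.94), *Egr1* (0.92), *Ier5* (0.91), *Atf3* (0.91) and *Gab2* (0.90), with *Srxn1* (0.79, rank 203) and *Osgin1* (0.78, rank 224) the nearest members. These values describe the libraries and were not tested.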

How the data were processed

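Whole-liver RNA was sequenced in 24 libraries. The authors trimmed reads (Trimmomatic), mapped them to mm10 (STAR) and deposited raw counts per gene with no normalization, in 1 unstranded and 2 stranded columns; the annotation version was not given in the sources used here. Unstranded counts of 24411 genes were used. In R 4.3.3, edgeR 4.0.16 filtered genes (filterByExpr), computed TMM factors and log2 CPM (prior count of 2) and ran 2-sided quasi-likelihood tests, with Benjamini-Hochberg adjustment over all genes tested. Alternatives were DESeq2 1.42.0, RLE or library size scaling, a filter of 1 count, no fold limit, a stranded column, other blocks and leaving out each library or time. Scripts were tested on simulated data with 200 changed genes. Members, lists and tests were chosen with earlier results of these data known. Named were all members and regulators, up to 4 called list genes each way per comparison, with all their called times, and the 5 genes most like *Nqo1* and *Hmox1*. Counting intervals are exact binomial. The study's own comparisons were not used.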

Additional observations from a re-analysis of the deposited data

Results flagged for a closer look

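In groups of 4 mice at 0 h, 4 of 20 group values had 1 mouse far from the others by Dixon's ratio. For well-counted genes chance gives about 1 in 20; the rate does not apply to the 2 values of *Slc7a11*, where a single read among zeros always gives the largest ratio. *Osgin1* was at 137 CPM in 1 control mouse and at 71.3 to 76.3 CPM in the other 3. *Srxn1* was at 27.4 CPM in 1 control mouse and at 37.4 to 39.2 CPM in the other 3. *Slc7a11* had 1 read in 1 control mouse (0.0609 CPM) and 1 read in 1 LKO mouse (0.0552 CPM), and 0 in the other 3 of each.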

How the results depend on the processing

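Across 219 recounts of called members, 198 stayed within 1.5 times the main count. Over 12–96 h the 2 members called became 0 with scaling by library size, 1 with a stranded column, 0 with no block for time, and 0 to 1 without 1 time point. With *Slc7a11* included, called members at 48 h after APAP went from 4 to between 2 and 4 without 1 library, the lowest without the control pool of 48 h. At 72 h they went from 5 to 3 with a stranded column and to between 3 and 5 without 1 library, 3 without any of 7 libraries (control mice 1, 2 and 3, LKO mouse 3, both 72 h pools and the control pool of 96 h). At 96 h DESeq2 called 1 and leaving out a library gave 0 to 1, the 1 being *G6pdx*. For the effect over 12–96 h minus that at 0 h DESeq2 called 1. The mean *Hmox1* minus *Nqo1* difference lay between -1.89 and -1.44 under all 9 alternatives. Single values were followed for the *Hmox1* minus *Nqo1* difference and for members and regulators in comparisons where at least 1 setting called them. Of these 1094 values none reversed, 66 lost their call and 21 gained one. Genes that no setting called in a comparison did not enter, so the lack of reversals does not cover them. Counts over all genes moved more. Those over 12–96 h ranged from 0 to 606 around 74, those at 12, 24, 48, 72 and 96 h after APAP from 2079 to 4754 around 4202, 1143 to 3906 around 3484, 474 to 2637 around 2230, 474 to 2519 around 2244 and 11 to 342 around 62, and those in HKO from 54 to 331 around 119. The lowest counts after APAP were those without the control pool of 12, 48 or 72 h and the LKO pool of 24 or 96 h, and the lowest in HKO that without AAV8-TBG-Null mouse 1. The effect at 12–48 h minus that at 72–96 h ranged from 0 to 172 around 19. The causes were not tested.

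The mice of the same replicate number did not deviate together: correlations ran from -0.379 to 0.223 for control and LKO and from -0.0308 to 0.198 for AAV8-TBG-Null and HKO. With the replicate number as a block, 0 members were called in LKO at 0 h, 0 in HKO and 0 for the difference between these effects; the count over all genes in HKO went from 119 to 263, and *Maff* in HKO passed (-1.04, adjusted p = 0.0393).

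Depth limits *Slc7a11* at 0, 72 and 96 h. At each time after APAP 1 pool per genotype stands for 3 mice, and the spread between such mice was not measured. The filter by the design was chosen after seeing the data.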
